A study of Mus musculus with 17 samples.

Results

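Hair follicle stem cells (HFSCs) of unfasted mice were compared between a long-term feeding experiment and a hair cycle experiment, using 4 of the 17 libraries of a series on fasting and hair regeneration. Both groups were wild-type mouse skin cells purified by sorting. The long-term fed group (2 libraries, called fed 1 and fed 2) came from mice kept for 6 months on ad libitum feeding, as the control arm of an alternate-day fasting regimen. The telogen group (2 libraries, called telogen 2 and telogen 3 after the numbers in their column names) came from follicles at the 2nd telogen, with the treatment given as control. Sex, age at sampling, sort markers and the hair cycle stage of the long-term fed mice are not in the labels. Nor do the labels say whether each library is a separate mouse, and p-values then reflect only the variation among these libraries, possibly technical. Genes were members when their mean deposited abundance over the 4 libraries was at least 1 TPM, the unit of transcript abundance that is scaled by transcript length and library total, which held for 11864 of 35674 gene symbols joined between the 2 tables. The groups come from separate tables with no library in common, so feeding history, age, hair cycle stage, table and batch cannot be told apart in any difference below.

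HFSCs lie in the bulge of the hair follicle and stay quiescent through telogen, the resting phase of the hair cycle, under bone morphogenetic protein (BMP) and FGF18 signals. They share their skin with interfollicular epidermis, whose upper cells cornify: they cross-link loricrin, involucrin, small proline-rich and late cornified envelope proteins under the membrane, secrete proteases of shedding and build a lipid barrier. Many of these cornification proteins are encoded side by side on mouse chromosome 3 in the epidermal differentiation complex, which S100 calcium-binding protein genes flank.

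All 4 libraries carried the HFSC label in their RNA. The summed deposited TPM of 8 HFSC markers was 45941 in fed 1, 42403 in fed 2, 41387 in telogen 2 and 30780 in telogen 3, and Krt15, a bulge keratin, supplied most of it. T cell, dermal papilla, mast cell and adipocyte marker sums were at most 2.45 TPM in each library, with Cd3e, Cd2, Rspo2, Hey2, Fcer1a and Cidec at 0 in all 4. Cdkn2a, a cell cycle inhibitor of senescence, and the Y-linked Ddx3y and Eif2s3y were listed at 0 in every library. The Y-linked Kdm5d and Uty were above 0 in all 4, at 0.0294 to 0.663 deposited TPM. The proliferation gene Mki67, also under the abundance limit, was at 1.73 and 1.07 deposited TPM in the fed and 0.216 and 0.0739 in the telogen libraries.

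A library in each group stood apart. Over the tested genes, fed 2 correlated more closely with telogen 2 (Pearson r of log2 levels 0.942) than with fed 1 (0.908), while telogen 2 and telogen 3 correlated at 0.956, across genes that are not independent. Telogen 3 had the fewest genes at 1 TPM or more (10882, against 11352 to 11908 in the others), and 11.95% of its TPM lay in cytosolic ribosomal protein genes, against 3.96% in fed 1, 5.48% in fed 2 and 7.45% in telogen 2. Levels below are therefore TPM divided by a median-ratio size factor per library (1.13 and 1.18 in the fed, 1.03 and 0.725 in the telogen libraries), called scaled TPM. Without that scaling the median gene would sit 0.36 higher in the fed group on the log2 scale. Since TPM keeps no read counts, the depth behind each value is unknown.

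On log2(scaled TPM + 1), a scale that understates the change of low genes, 445 of 11864 genes (3.75%) differed at an adjusted p under 0.05 by limma with Benjamini-Hochberg adjustment. Of these, 166 (1.40%) were higher and 279 (2.35%) lower in the long-term fed libraries. Without scaling the split was 453 higher and 174 lower, quantile normalization gave 184 and 185, and rescaling TPM to equal totals after removal of the mitochondrial genome and ribosomal proteins gave 397 and 172. Both fed libraries lay above both telogen libraries at 3157 genes (26.6%) and below them at 3204 (27.0%). The calls depended on which libraries were in the fit. Each library was left out in turn, and without fed 2 no gene was called. That fit takes its variance from the telogen libraries alone, so its lack of calls does not measure the part of fed 2 in the differences. The calls that stood in the other 3 of these fits numbered 44 higher and 24 lower. A fit that leaves a group with 1 library assumes that this library varies like the other group. The fit without fed 1 also takes its variance from the telogen libraries alone. Calls gained or lost in it do not measure the part of fed 1 in the differences.

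The difference followed the base composition of the transcripts. Across 11828 genes with an annotated transcript, Spearman's rho between the difference and GC content was -0.44, and the median difference ran from 0.61 in the decile of genes with the lowest GC content to -0.63 in the decile with the highest. Genes called higher had a median GC content of 46.5%, genes called lower 55.1% and all genes 50.7%. Genes called lower also had short transcripts, with a median of 817 bases against 1308 over all genes. When each library was centred on GC content, an alternative chosen after seeing the data, 213 genes were called, of which 197 were among the 445 (84 higher and 113 lower). A named gene that lost its call in that fit is marked as such below.

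**Figure D1:**
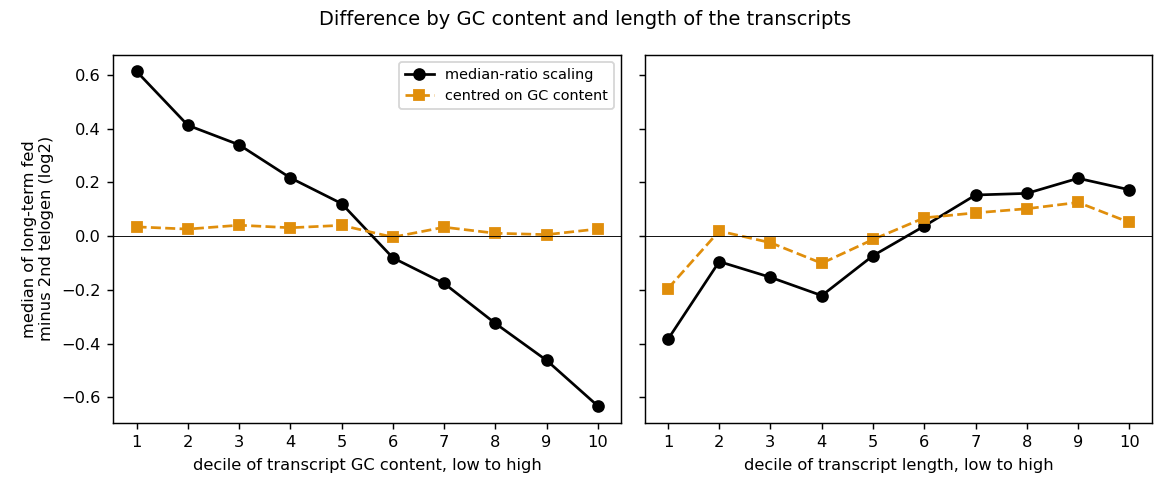
Median difference of long-term fed minus 2nd-telogen HFSCs (log2) in deciles of the genes by transcript GC content (left) and transcript length (right), with median-ratio scaling (black circles) and after centring on GC content (orange squares). The black line falls steadily with GC content, from 0.61 to -0.63, and the centred line stays close to 0.

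Cornification genes were frequent among the higher calls. Of 20 tested genes of the interfollicular epidermis and upper follicle, 6 were higher and 1 lower, against 1.40% and 2.35% of all tested genes. The median difference was 1.16 against -0.00478 over all genes. After GC centring the list again had 6 higher and 1 lower, with a median of 1.16. Without fed 1 the median difference was 0.86. Loricrin (Lor), the main protein of the cornified envelope, measured 98.8 and 136 scaled TPM in the fed libraries and 10.4 and 15.02 in the telogen libraries. Its groups did not overlap, and the difference was 3.11 (SE 0.40, adjusted p 0.000277).

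Krtdap, a secreted protein of differentiating keratinocytes, was the most abundant of the group, at 3585 and 3618 against 543 and 981 scaled TPM (difference 2.30, adjusted p 0.014). It missed the threshold without fed 1, in a fit whose variance comes from the telogen libraries alone. Involucrin (Ivl), an early scaffold of the envelope, measured 24.1 and 8.43 against 2.02 and 1.68 (2.44, adjusted p 0.0292) and was called in none of the 4 fits that left a library out. Dsg1a, a desmosomal cadherin of the upper epidermis, Krt77, a type II keratin, and Grhl1, a transcription factor of epidermal differentiation, were the other higher members, with differences of 2.53, 2.32 and 1.97. The list did not move as a block. Calml3, a calmodulin-like protein of epithelium, was lower at 127 and 107 against 468 and 491 (-2.04, adjusted p 0.00539). The suprabasal keratin Krt10 measured 184 and 179 against 54.4 and 109 (1.22, adjusted p 0.0945), its partner Krt1 3.66 and 8.39 against 10.4 and 10.2 (-0.77, adjusted p 0.428), and Sbsn, which encodes suprabasin, 255 and 264 against 417 and 896 (-1.23, adjusted p 0.113).

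The epidermal differentiation complex, taken here from S100a1 to S100a10 (chr3:90511034-93564643, GRCm38), held 103 genes of the table, of which 46 were tested. It was singled out after Lor and its neighbours had been seen among the calls. Among the 36 tested genes that are not S100a genes, 11 were higher and none lower (all genes: 1.40% higher and 2.35% lower). Their median difference was 1.82. The 11 were Lor, Ivl, Sprr1b, Sprr2d, Sprr2g, Sprr2h, Lce1f, Lce1m, Lce3c, Kprp and Crct1. After GC centring 11 were called again, with Lce1a2 (adjusted p 0.0362) in place of Sprr2d, whose difference was as large as before (2.61 against 2.57) with an adjusted p of 0.0622. Lor is itself a GC-rich transcript (68.3% GC), so its higher level ran against the GC trend of all genes.

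The small proline-rich (Sprr) and late cornified envelope (Lce) proteins are substrates of envelope cross-linking. Of their 22 tested genes 7 were higher (all genes: 1.40%) and none lower, with a median of 1.89. Sprr2h measured 19.9 and 32.8 against 0.953 and 0 scaled TPM, and Sprr1b 20.2 and 24.0 against 2.99 and 0. Sprr2g was at 9.59 and 6.89 in the fed libraries and listed at 0 in both telogen libraries. Lce1m, the most abundant Lce gene, measured 237 and 192 against 26.2 and 41.4 (2.65, SE 0.38, adjusted p 0.000711). In none of these 4 genes did the groups overlap. Cysteine-rich C-terminal protein Crct1 measured 143 and 146 against 27.0 and 13.4 (2.86, adjusted p 0.000644). The most abundant tested Sprr gene, Sprr1a, overlapped at 106 and 139 against 73.0 and 117 and was not called (0.39, adjusted p 0.596).

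Fed 1 and fed 2 differed within the Lce1 cluster. Lce1l was listed at 0 in fed 1 and at 70.6 scaled TPM in fed 2, and Lce1i at 0 and 38.4, while telogen 2 held 2.49 and 1.87. Neither was called (adjusted p 0.363 and 0.367). Lce1c, at 22.3 in fed 1 and 123 in fed 2 against 7.56 and 16.9, lay just outside the threshold (adjusted p 0.055). The Lce1 genes are near copies of each other, so reads may have been split between them, and their single values are uncertain. Without fed 1 the difference of Lce1l was 5.13, against 2.06 with all 4 libraries. That fit takes its variance from the telogen libraries alone, so its calls do not measure how many of the 36 genes were higher.

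The S100a genes at the ends of the complex went the other way. Of 10 tested, none was higher and 1 was lower (all genes: 1.40% higher and 2.35% lower). At 8 of them both telogen libraries lay above both fed libraries, against 27.0% of all tested genes. The median difference was -1.26. S100a4, a calcium-binding protein, measured 592 and 749 against 6181 and 8202 scaled TPM (-3.42, SE 0.49, adjusted p 0.000711). The groups were far apart in all 4 libraries, yet the call was lost without fed 1. The difference was still -3.23 there, in a fit whose variance comes from the telogen libraries alone. S100a6 measured 1222 and 2176 against 4249 and 8607 (-1.89, adjusted p 0.0688), and S100a10 and S100a11 had differences of -1.47 and -1.48.

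The 250 bases before the transcription start are shown for the 5 called genes of the complex whose promoter window held the AP-1 motif TGANTCA. With N as any base, it is a loose form of the site of the Fos and Jun factors that the epidermis uses in differentiation. The match reads TGAATCA in Sprr1b, TGACTCA in Ivl and TGAGTCA in Lor, Sprr2d and Sprr2h. Sequences are from RefSeq (GRCm38.p6), written 5′ to 3′ on the gene's strand, with the motif in capitals. Lor (chr3:92083143-92083392, minus strand) holds it 48 bases before the start, Sprr2d (chr3:92338890-92339139, plus) 193, Sprr2h (chr3:92385435-92385684, plus) 198, Sprr1b (chr3:92438780-92439029, minus) 111 and Ivl (chr3:92573736-92573985, minus) 116. A TATAAA element, in lower case, stands 27 to 30 bases before each of these starts.
Lor: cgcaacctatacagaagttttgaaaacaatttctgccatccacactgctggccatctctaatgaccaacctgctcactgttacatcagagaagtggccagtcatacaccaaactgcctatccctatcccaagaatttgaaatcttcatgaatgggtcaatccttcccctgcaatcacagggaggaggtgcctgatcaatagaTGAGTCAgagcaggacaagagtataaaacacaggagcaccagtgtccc
Sprr2d: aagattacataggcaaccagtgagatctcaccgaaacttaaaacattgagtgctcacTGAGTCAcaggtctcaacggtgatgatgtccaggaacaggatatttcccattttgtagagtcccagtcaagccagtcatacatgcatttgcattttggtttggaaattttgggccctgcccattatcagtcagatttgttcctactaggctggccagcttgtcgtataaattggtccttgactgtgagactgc
Sprr2h: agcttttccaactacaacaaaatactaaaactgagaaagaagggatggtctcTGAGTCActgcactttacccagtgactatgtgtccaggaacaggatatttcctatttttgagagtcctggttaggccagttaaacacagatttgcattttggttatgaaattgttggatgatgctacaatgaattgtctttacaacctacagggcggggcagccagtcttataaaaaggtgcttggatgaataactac
Sprr1b: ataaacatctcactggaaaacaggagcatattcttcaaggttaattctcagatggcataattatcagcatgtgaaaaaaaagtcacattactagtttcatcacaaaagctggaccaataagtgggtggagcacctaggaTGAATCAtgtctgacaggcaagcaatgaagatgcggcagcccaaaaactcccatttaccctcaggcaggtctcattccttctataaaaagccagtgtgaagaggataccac
Ivl: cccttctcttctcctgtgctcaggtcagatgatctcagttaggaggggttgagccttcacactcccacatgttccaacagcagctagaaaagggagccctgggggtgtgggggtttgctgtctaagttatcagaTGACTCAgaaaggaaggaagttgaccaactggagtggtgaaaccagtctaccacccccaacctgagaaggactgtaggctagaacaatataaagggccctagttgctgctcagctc

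Promoter windows were found for 9045 of the tested genes. TGANTCA, which reads the same on both strands, was present in 5 of the 7 higher genes of the complex that had a window. It was present in 21 of 111 genes called higher (18.9%), 4 of 211 called lower (1.90%) and 387 of the 9045 (4.28%). TATAAA on either strand was found in 21 of the 111 (18.9%), 19 of the 211 (9.005%) and 559 of the 9045 (6.18%). The grainyhead-like motif AACNGGTT was in 4 of 111, 1 of 211 and 145 of 9045 and CCAAT in 41, 82 and 3305. The motifs were picked after the calls were known, and a match describes letters and not binding. None of 7 tested Fos and Jun family genes was called. Fos measured 13799 and 9008 against 9517 and 11939 scaled TPM, Jun 2429 and 1744 against 1978 and 2138, and both overlapped, as did Fosl2, Junb and Jund. Fosl1 had the fed libraries above by a small margin, at 818 and 668 against 653 and 667 (0.16, adjusted p 0.854). Fosb had the telogen libraries above, at 233 and 366 against 676 and 780 (-1.31, adjusted p 0.0788).

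Outside chromosome 3, the largest higher difference belonged to Krt23, an acidic keratin (chr11:99477974-99493137, minus strand). It measured 159 and 95.3 scaled TPM in the fed libraries against 2.84 and 2.03 (5.19, SE 0.44, adjusted p 2.26e-06). Cnfn, which encodes cornifelin of the envelope, measured 221 and 119 against 6.32 and 6.05 (4.51, SE 0.41, adjusted p 5.58e-06). For both genes the gap between the groups exceeded the spread within them, and both calls were lost without fed 2 and kept in the other 3 fits that left a library out. Lypd5, a Ly6-type membrane protein, measured 61.0 and 46.8 against 1.92 and 0.671, and Trex2, a keratinocyte exonuclease, 56.6 and 33.1 against 1.02 and 4.23.

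Genes of protease control and of the lipid barrier, grouped after the calls were seen, were among them. Of 6 tested kallikreins, serine proteases that loosen the junctions of shedding cells, Klk5, Klk7 and Klk8 were higher and none lower (all genes: 1.40% and 2.35%). Klk7 measured 74.0 and 48.9 against 2.41 and 5.72 scaled TPM (3.68, adjusted p 0.000277). Their inhibitor Spink5 was higher as well, at 42.7 and 20.7 against 4.46 and 3.05 (2.71, adjusted p 0.00539). Of 11 clade B serpins, intracellular protease inhibitors, Serpinb7 and Serpinb2 were higher (all genes: 1.40%) and none lower. Serpinb7 measured 113 and 46.1 against 2.22 and 1.63 (4.65, adjusted p 3.36e-05).

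Elovl4, which elongates the very long fatty acids of barrier ceramides, measured 59.7 and 138 against 5.38 and 3.64 scaled TPM (4.08, SE 0.46, adjusted p 7.54e-05). Alox12b, the lipoxygenase that acts on those ceramides, measured 4.19 and 8.81 against 0.103 and 0 (2.77, adjusted p 0.0407). Hal, the enzyme that makes urocanic acid from histidine in the cornified layer, measured 38.7 and 14.5 against 2.09 and 0 (3.82, adjusted p 0.00291). Every one of these 3 genes was higher in both fed libraries than in either telogen library. For Elovl4 and Hal the rule for naming genes required this.

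Among signalling genes, Ereg, an EGF receptor ligand, measured 27.8 and 14.5 against 0.306 and 0.272 scaled TPM (4.03, SE 0.59, adjusted p 0.000827). It was the 1 higher gene of 26 tested in TGF-beta, EGF and FGF signalling (all genes: 1.40%). The related ligand Epgn measured 36.0 and 20.1 against 11.1 and 4.53 and stayed uncalled (1.77, adjusted p 0.0545). Of 10 genes of the IL-1 family and its receptors, 3 were higher (all genes: 1.40%) and none was lower. The 3 were the antagonists Il1f5 and Il1rn and the decoy receptor Il1r2. Il1f5 measured 43.8 and 20.6 against 1.52 and 0.639 (3.94, adjusted p 0.000593). The chemokines Ccl2, at 158 and 174 against 52.5 and 61.4, and Ccl20, at 52.2 and 41.6 against 18.4 and 9.45, were called at adjusted p 0.0287 and 0.0335, and both calls were lost after GC centring. With the Sprr genes they gave the stress keratinocyte list 5 higher and 1 lower of 16 tested (all genes: 1.40% and 2.35%). The count fell to 2 higher and none lower after GC centring. The lower member was Krt6a, a keratin of stressed and companion layer cells, at 243 and 156 against 637 and 572 (-1.63, adjusted p 0.0308), whose call was lost after GC centring (adjusted p 0.0941).

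Cell-cell junction genes had 3 higher and 1 lower of 21 tested (all genes: 1.40% and 2.35%), with a median of 0.78. Claudin-4 (Cldn4), a tight junction protein, measured 162 and 118 against 19.6 and 21.6 scaled TPM (2.69, SE 0.38, adjusted p 0.000644). Occludin (Ocln) measured 40.1 and 31.6 against 11.4 and 3.32 (2.32, adjusted p 0.0178). Plakoglobin (Jup), which anchors desmosomes and adherens junctions, was lower at 117 and 145 against 427 and 289 (-1.42, adjusted p 0.0457), a call lost after GC centring (adjusted p 0.224). E-cadherin (Cdh1) overlapped, at 53.8 and 72.7 against 76.4 and 42.2.

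Of 26 tested cholesterol and fatty acid synthesis genes, 4 were higher and 1 lower (all genes: 1.40% and 2.35%), with a median of 0.57. Scd1, the fatty acid desaturase, measured 22.8 in fed 1 and 155 in fed 2 against 8.63 and 4.91 (3.01, adjusted p 0.0131). The fed libraries differed widely from each other here, and Scd1 was the only one of the 4 higher calls left after GC centring. Squalene epoxidase (Sqle) measured 143 and 138 against 65.8 and 29.9 (1.64, adjusted p 0.0341, and 0.0662 after GC centring), and Cyp51 and Idi1 had differences of 1.65 and 1.57. Srebf1, a transcription factor of lipid synthesis, was lower at 10.03 and 12.1 against 36.7 and 38.6 (-1.68, adjusted p 0.0323, and 0.204 after GC centring). Soat1, which esterifies cholesterol and also served as a sebocyte marker, measured 13.1 and 42.0 against 1.55 and 0.41 (3.70, adjusted p 0.00242). Of 7 sebocyte markers 6 were tested and Soat1 was the 1 called. Their summed deposited TPM was 211 and 356 against 162 and 173, with Mgst1 the largest term, and Awat2 at 0 in fed 1 and 8.68 in fed 2. The part of sebocytes in these lipid gene differences was not tested.

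**Figure D2:**
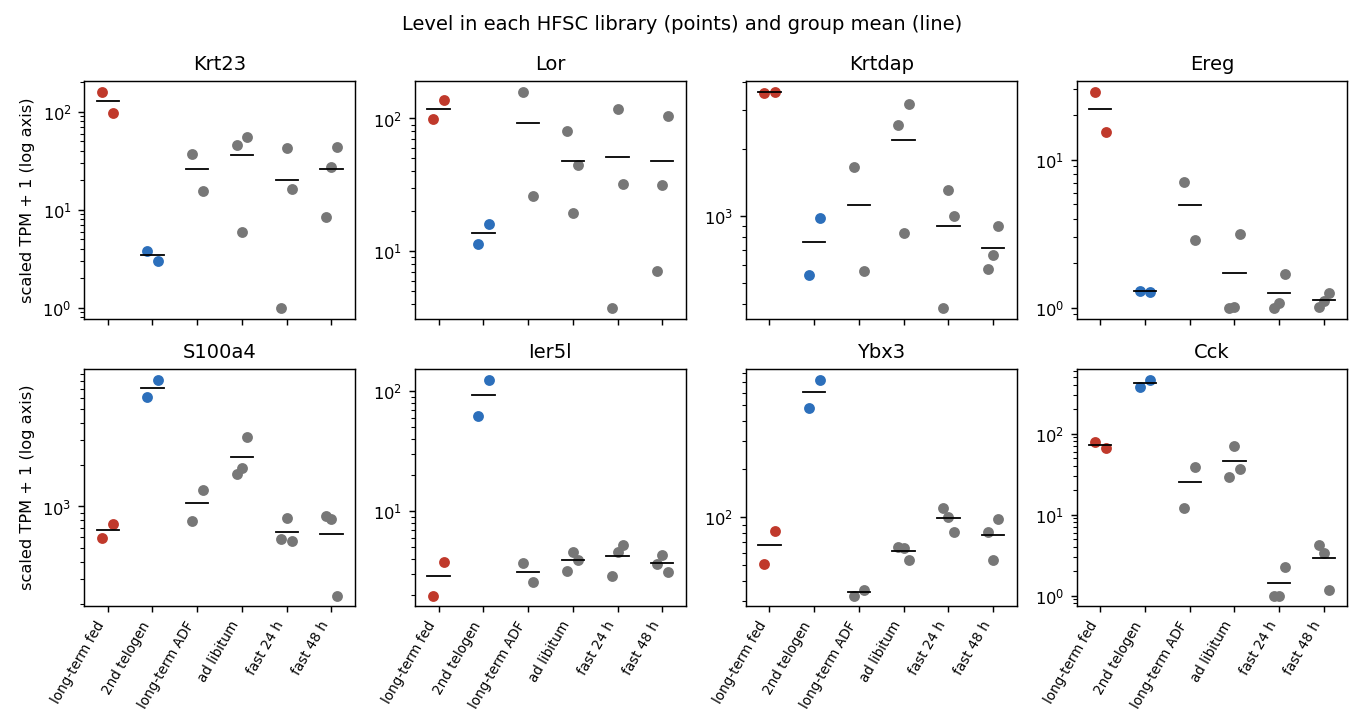
Scaled TPM + 1 (log axis) of 8 genes in each HFSC library, with long-term fed in red, 2nd telogen in blue, the other groups in grey and lines at group means. The fed points lie above the telogen points for Krt23, Lor, Krtdap and Ereg and below them for S100a4, Ier5l, Ybx3 and Cck, and in Lor the grey points spread over the range of both.

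Other HFSC libraries of the series, scaled the same way, give the range in which these levels vary. The libraries of alternate-day fasting are so named by their titles, though their treatment label reads ad libitum. The 11 higher genes of the complex summed to 592 and 645 scaled TPM in the fed and 73.2 and 78.3 in the telogen libraries. The same sum was 405 and 110 in the libraries of alternate-day fasting, 212, 61.6 and 296 with ad libitum feeding in the short experiment, 4.69, 460 and 95.3 after a 24 h fast and 22.3, 94.1 and 542 after a 48 h fast. Libraries of a single condition thus spread widely, and the telogen libraries lay inside the range. The 11 genes were picked for being high in the fed libraries, so the place of the fed sums above the others is partly set by that choice. Lor alone measured 158 in a library of alternate-day fasting, above both fed libraries. Over all 20 tested genes of the interfollicular epidermis list, whether called or not, the median level was 55.2 and 38.8 scaled TPM in the fed and 14.3 and 12.6 in the telogen libraries. It ranged from 7.35 to 49.4 in the other 11, of which a library of alternate-day fasting (49.4) and one of a 24 h fast (46.0) lay above fed 2. Bulk libraries cannot separate more cornifying cells from more cornification RNA per cell. The basal keratinocyte sum of 5 markers was 10927 and 9713 deposited TPM in the fed and 11659 and 9350 in the telogen libraries.

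Among the lower genes, Ier5l, related to the immediate early response gene Ier5, had the largest difference. It measured 0.986 and 2.76 scaled TPM in the fed libraries against 61.1 and 124 (-5.01, SE 0.49, adjusted p 1.31e-05; chr2:30471537-30474219, minus strand). The other 11 HFSC libraries of the other conditions held 1.55 to 4.20, so for this gene the telogen libraries were the ones apart. Ybx3, an RNA-binding cold shock domain protein, showed the same order at 49.9 and 81.6 against 479 and 721 (-3.18, SE 0.40, adjusted p 0.000267), with 31.4 to 114 in the 11 libraries. Cck, the cholecystokinin precursor, measured 78.7 and 64.8 against 374 and 464 (-2.53, adjusted p 0.000827), with 0 to 70.0 elsewhere.

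Crim1, a transmembrane protein that binds BMPs, measured 5.46 and 12.1 against 146 and 46.1 scaled TPM (-3.17, adjusted p 0.002), with 6.88 to 20.5 elsewhere. Hspa1b, an inducible HSP70, measured 41.1 and 20.7 against 334 and 194 (-3.08, SE 0.42, adjusted p 0.000541), with 17.0 to 81.7 elsewhere. It was the 1 call in 16 tested heat shock genes (all genes: 3.75%), of which 11 had an unadjusted limma p under 0.05 (all genes: 2379 of 11864). Both telogen libraries lay above both fed libraries at 10 of the 16 (background 27.0%) and below them at 5 (background 26.6%). The median of the list was -0.63. Hspa1a, a near copy of Hspa1b, measured 432 and 309 against 1003 and 696 (-1.19, adjusted p 0.116), so the split of reads between them is uncertain. Cck is named because of its values, outside the rule for naming genes. Other large lower differences were in genes with near copies whose reads can be shared, Rpl37rt, Rpl27-ps3 and Il11ra2, and in Zfp969 and Fahd2a, each listed at 0 in a fed library. Rpl27-ps3 and Fahd2a lost their calls after GC centring (adjusted p 0.071 and 0.0823), where the differences were still -3.84 and -2.88.

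Over all genes called lower, 108 of 279 had both telogen libraries above the 13 other HFSC libraries, against 453 of 11864 tested genes (3.82%). Of the 166 called higher, 104 had both fed libraries above the other 13 (background 6.31%), and 82 of the 279 had both fed libraries below them (background 4.10%). A call by itself already sets the order against 2 of the 13, and most of the other libraries were processed with another read trimmer, so these counts describe the libraries.

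The lists of pathways that hold HFSCs at rest or start growth each had 1 call, close to the share over all genes (3.75%). Of 22 tested BMP, FGF18 and quiescence genes, none was higher and 1 was lower, with a median of -0.31. Gas1, a growth arrest protein and hedgehog co-receptor, measured 65.4 and 87.1 scaled TPM against 318 and 324 (-2.07, adjusted p 0.0046), and lost its call after GC centring (adjusted p 0.124). Fgf18, a quiescence signal of the bulge, was at 32.0 and 26.0 against 68.8 and 63.2, did not overlap, and was not called (-1.17, 95% interval -1.96 to -0.37, adjusted p 0.0946). In the other 11 HFSC libraries Fgf18 was at 2.69 to 12.8. The BMP targets Id1, at 1233 and 724 against 1770 and 3405, and Id3, at 1579 and 1187 against 2928 and 4646, had telogen above fed without a call (adjusted p 0.129 and 0.121), and Bmp6 overlapped at 2.34 and 4.67 against 2.48 and 5.15.

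Wnt4, a Wnt ligand, was the 1 call among 20 tested Wnt, hedgehog and hair germ genes. It measured 1.14 and 4.32 against 22.7 and 25.5 scaled TPM (-2.89, adjusted p 0.00598), and remained called after GC centring (adjusted p 0.0222). Its call did not stand in every fit that left out a library other than fed 2. Wnt11 measured 33.8 and 52.98 against 118 and 104 and stayed just outside the threshold (-1.36, adjusted p 0.0545). Axin2 and Lef1, targets of Wnt signalling, overlapped between the groups. Among 15 Smad and Wnt signal transducers, grouped after the calls were seen, Smad4, Nkd1, Dvl1 and Axin1 were lower (all genes: 2.35%) and none higher. Dvl1 and Axin1 lost the call after GC centring. Smad4 measured 2.94 and 4.36 against 38.7 and 30.4 (-2.94, adjusted p 0.00159). Fgfr3, a growth factor receptor, was lower at 5.50 and 8.11 against 47.8 and 38.9 (-2.52, adjusted p 0.00369), in a range of 11.1 to 56.4 in the other libraries, so here the fed libraries were the ones apart.

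The HFSC identity genes were not called by limma in either direction. Of 20 tested, 3 had an unadjusted p under 0.05, and the median difference was -0.02. Cd34, the bulge surface marker, measured 1119 and 801 against 1255 and 779 scaled TPM (-0.06, 95% interval -1.0 to 0.88). Sox9 measured 252 and 311 against 259 and 199 (0.30, -0.50 to 1.09), and Lgr5 96.7 and 116 against 118 and 82.9 (0.10, -0.69 to 0.88). Lhx2, a transcription factor of the bulge, had the telogen libraries above, at 78.5 and 107 against 175 and 183 (-0.96, -1.73 to -0.18, adjusted p 0.151). Krt15 measured 38831 and 34362 against 38071 and 41045, with an interval from -2.01 to 1.78, and Nfatc1 overlapped, while Tcf7l1 and Foxc1 had telogen above fed with differences of -0.53 and -0.54. The intervals of Cd34, Sox9 and Lgr5 reach 0.88 or more above 0, so the data do not show that these levels were alike.

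Col17a1, the hemidesmosomal collagen, was at 275 and 414 against 746 and 511 scaled TPM (-0.87, -1.73 to -0.01, adjusted p 0.243), and none of 27 tested matrix and adhesion genes was called by limma, with 8 at an unadjusted p under 0.05. Cell cycle genes leaned upward: of 31 tested, 19 had both fed libraries above both telogen libraries (background 26.6%), and the median was 0.65. Ccnb2 was the 1 call (all genes: 3.75%). Ccnb2, the mitotic cyclin B2, measured 11.96 and 11.99 against 1.17 and 1.95 (2.36, SE 0.56, adjusted p 0.0282), and Top2a 11.8 and 7.72 against 2.06 and 1.64 (1.90, adjusted p 0.073). The levels are low, and Ccnd1 overlapped at 33.6 and 27.0 against 29.2 and 37.4, as did Cdkn1a at 2312 and 1661 against 1457 and 2336. Bhlhe40 was the 1 call among 17 clock genes (all genes: 3.75%), at 130 and 80.1 against 44.5 and 25.9 (1.56, adjusted p 0.0403). After GC centring its difference was 1.62 with an adjusted p of 0.0508. The clock genes Arntl, Dbp and Nr1d1 had differences of 1.18, 0.49 and -0.72, none called, and Per2 did not reach the abundance limit.

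Immediate early genes were strongly expressed in all 4 libraries. Of 26 tested, none was higher and 3 were lower (all genes: 1.40% and 2.35%), with a median of -0.05. Nr4a3, an orphan nuclear receptor, measured 9.42 and 7.03 against 38.6 and 38.8 scaled TPM (-2.12, adjusted p 0.0107), Ier5 8.51 and 17.4 against 45.9 and 50.9 (-1.90, adjusted p 0.0222), and Ier3 558 and 349 against 1598 and 1595 (-1.85, adjusted p 0.0257, and 0.0727 after GC centring). Their relatives Nr4a1 and Ier2 overlapped. None of the 3 lower calls stood in every fit that left out a library other than fed 2. Of 21 insulin, IGF and SOCS genes, 3 were lower (all genes: 2.35%) and none was higher. They were the insulin receptor substrate Irs2, the IGF-binding protein Igfbp4 and the cytokine signal inhibitor Cish. All 3 calls were lost after GC centring (adjusted p 0.0727, 0.124 and 0.150). The same held for the stress gene Gadd45b (1 lower call of 22 in CDK inhibitors, p53 and senescence) and the serine synthesis enzyme Phgdh (1 of 23 in the integrated stress response). It also held for the hair keratin Krt32 and hair matrix factor Msx1 (2 of 11 in inner root sheath and hair shaft). The share of lower calls over all genes was 2.35%.

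Ribosomal protein and respiratory chain genes were often lower in the fed libraries. Of 82 tested cytosolic ribosomal protein genes, 24 were lower (all genes: 2.35%) and none higher. At 73 of them both telogen libraries lay above both fed libraries (background 27.0%), and the median was -1.46. The median level of these genes was 291 and 423 scaled TPM in the fed and 608 and 1344 in the telogen libraries, and 398 to 719 in the other 11 HFSC libraries. Fed 1 and telogen 3 were the extremes of all 15. Rpl39, a short subunit protein, measured 48.8 and 83.7 against 220 and 554 (-2.43, adjusted p 0.00539). After GC centring 9 calls were made. Without fed 1 the median difference was -1.15, in a fit whose variance comes from the telogen libraries alone. Many of these genes have processed copies that can share reads.

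Nuclear oxidative phosphorylation genes followed the same order, with 9 of 77 lower (all genes: 2.35%), none higher and a median of -1.14. At 62 of them both telogen libraries lay above both fed libraries (background 27.0%). Their median level was 160 and 248 against 327 and 690 scaled TPM. Ndufb2, of complex I, measured 108 and 242 against 430 and 1074 (-2.07, adjusted p 0.0242), and Atp5mpl, of the ATP synthase, 55.3 and 167 against 264 and 662 (-2.11, adjusted p 0.0282). Without fed 1 the median difference was -0.81. Antioxidant genes had 2 of 27 lower (all genes: 2.35%) and none higher. Superoxide dismutase Sod1 was at 233 and 401 against 1213 and 2450 (-2.49, adjusted p 0.00586). Gpx1 was at 1043 and 996 against 3071 and 5181 (-1.97, adjusted p 0.0348), and lost its call after GC centring (adjusted p 0.125).

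The 13 protein genes of the mitochondrial genome together took up 3.66% and 4.10% of deposited TPM in the fed and 3.50% and 3.42% in the telogen libraries, so their sum differed little, but the single transcripts were unequal. The cytochrome oxidase subunit genes mt-Co2, at 606 and 945 against 4305 and 5817 scaled TPM (-2.72, adjusted p 0.00493), and mt-Co3, at 549 and 1614 against 5682 and 8390 (-2.87, adjusted p 0.00987), were lower. The complex I genes mt-Nd3 (-3.54, adjusted p 0.00156) and mt-Nd4l (-1.54, adjusted p 0.0478) were lower too. The adjacent mt-Atp8 and mt-Atp6 had the fed libraries above, at 17946 and 19377 against 10277 and 14407 and at 7169 and 6778 against 3156 and 6599, without a call. In the other 11 libraries mt-Co2 ranged from 1098 to 30083 and mt-Co3 from 1823 to 60855. The low ends were the alternate-day fasting libraries, which share a table with the fed libraries. They held 1102 and 1098 of mt-Co2 and 1823 and 2015 of mt-Co3. The libraries of the short experiment held 3842 to 30083 of mt-Co2 and 6635 to 60855 of mt-Co3.

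**Figure D3:**
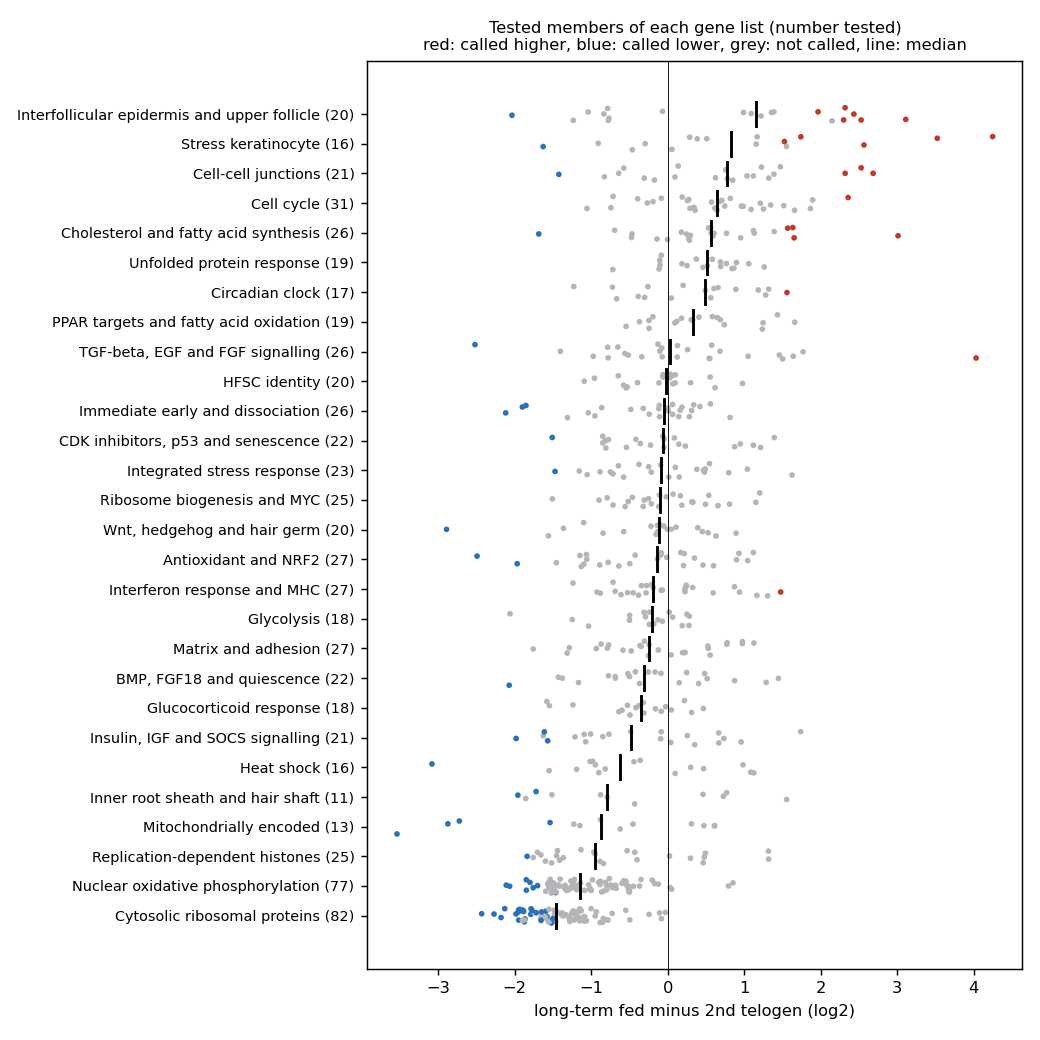
Difference of long-term fed minus 2nd-telogen HFSCs (log2) for the tested members of each gene list, with calls in red and blue and the list median as a black line. The interfollicular epidermis list has its median at 1.16, HFSC identity at -0.02 and cytosolic ribosomal proteins at -1.46.

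Traces of other cells differed in places. The erythroid marker sum was 37.7 and 41.6 deposited TPM in the fed and 92.2 and 163 in the telogen libraries, and the hemoglobin genes Hbb-bs, Hba-a1 and Hba-a2 were called lower, with Hbb-bs at 1.06 and 1.44 against 16.6 and 48.0 scaled TPM (-3.71, adjusted p 0.00116). Hba-a1 and Hba-a2 lost their calls after GC centring (adjusted p 0.164 and 0.168), and Hbb-bs kept its call. The fibroblast sum was 75.7 and 32.3 against 42.7 and 38.1, and Col1a1 alone among its 5 tested markers was lower, at 0.218 and 0.897 against 10.6 and 8.84 (-2.82, adjusted p 0.0204, and 0.0622 after GC centring). Cd74, the invariant chain of class II antigen presentation, was the 1 call of 27 tested interferon response and MHC genes (all genes: 3.75%). It was higher at 95.1 and 130 against 33.2 and 46.4 (1.48, adjusted p 0.039). The macrophage and dendritic sum was 7.09 and 14.3 against 7.58 and 5.15, with Itgax at 0 in all 4 libraries and the Langerhans cell marker Cd207 at 6.84 and 3.43 against 0.842 and 0. The part of such cells in the Cd74 difference was not tested. In the remaining lists, limma called none of 18 glucocorticoid response, 19 PPAR and fatty acid oxidation, 18 glycolysis, 19 unfolded protein response or 25 ribosome biogenesis genes, where 3, 2, 3, 4 and 4 had an unadjusted p under 0.05 (all genes: 2379 of 11864). The 19 unfolded protein response genes leaned upward, with a median of 0.52. Both fed libraries lay above both telogen libraries at 12 of them (background 26.6%) and below them at 1 (background 27.0%). Of 25 tested histone genes 1 was lower (all genes: 2.35%) and none higher.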

How the data were processed

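RNA of sorted HFSCs was amplified full length with a kit meant for single cells and made into libraries with a transposase kit, per the labels' protocols. The deposited values are TPM computed by the authors, and each of the 4 columns sums to 1e+06. Per the submitters' processing notes, the mm10 build, DESeq2 1.36.0, Trimmomatic 0.39 and Salmon 1.4.0 belong to these 4 libraries, with no role or order given, and fastp 0.23.1 in place of Trimmomatic to the short fasting libraries. TPM is set within each library, so the 2 tables could be joined by symbol. As a check, the 2 ad libitum columns that the telogen table repeats equalled those of the other table at 35674 of 35674 genes within 1e-06 TPM. Columns without a sample numbered 0.

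From the files, TPM was divided by median-ratio size factors, filtered at a mean deposited TPM of 1, and tested on log2(scaled TPM + 1) with limma 3.58.1 in R 4.3.3 (empirical Bayes with a mean-variance trend, two-sided, Benjamini-Hochberg over all 11864 genes, adjusted p under 0.05 as a call). Intervals are 95% intervals of the fit. The code was tested on simulated data. Named genes are the 12 largest called differences in each direction with a mean scaled TPM of 10 or more and no overlap of the groups, up to 4 called members of each list, and a fixed set of HFSC, clock and cell cycle genes. Others are named from the lists or for their values. The members and lists were chosen with earlier results of these data known. The families, the chromosome 3 region, the motifs and the GC correction (loess, span 0.3) were chosen after seeing the data. Positions are from GENCODE M21 (GRCm38). Other settings, GC centring and each left-out library were tried. Xist was not analysed here.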

Additional observations from a re-analysis of the deposited data

How the results depend on the processing

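Against 445 calls (166 higher, 279 lower), the counts of higher and lower calls were 453 and 174 with no scaling, 397 and 172 without mitochondrial and ribosomal protein genes, and quantile normalization gave 185 lower. A pseudocount of 0.1 gave 188 (82 and 106), no mean-variance trend 39 (25 and 14), and robust estimation 737 (275 and 462). With no filter on low values limma called 0 in all, 0 higher and 0 lower, among 19008 genes, with 1988 at an unadjusted p under 0.05. Leaving out 1 library gave 0 to 757 calls, 0 to 237 higher and 0 to 520 lower, and the 0 came without fed 2 (2602 genes at an unadjusted p under 0.05). The alternatives chosen after seeing the data, GC centring with 213 (92 and 121) and GC and length centring with 254 (109 and 145), were also run. The cause of these shifts was not tested. A pseudocount of 5, a minimum of 5 TPM and a fit of all 8 libraries of both tables kept each count within 1.5 times. No named gene changed direction with a call in any of these fits. With no filter, 71 named genes lost their call. The 17 that kept their side of the threshold there were uncalled in the main fit. The counts that kept their side elsewhere include these 17. They were 32 with no trend, 61 with GC centring, and 84 or more with robust estimation, a pseudocount of 5 or the 5 TPM minimum. No paired analysis was possible because the telogen columns carry the numbers 2 and 3 and their titles 1 and 2, so that no number pairs libraries across groups. Depth cannot be read from TPM, so values near 0 may be undetected transcripts.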
